A study of Mus musculus with 9 samples.

Results

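The genes described here are 7 transcription factors of the Ebf and Zic families, Ebf1, Ebf2, Ebf3, Zic1, Zic2, Zic4 and Zic5, out of 19369 genes listed in the RNA-Seq data. They were chosen by their deposited FPKM and counts, because they were well expressed in the mesenchyme around the early mouse eye and nearly lost from the cornea that forms there later. Their fall from E10.5 to the cornea is therefore given as a description, without a test. Ebf4 was not part of the choice and was tested.

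RNA-Seq covered 9 samples of wild-type C57BL/6 mouse embryos, 3 per stage, with no transgene or treatment. Each E10.5 sample held periocular neural crest (pNC) pooled from 26 eyes after dispase treatment and removal of the ectoderm, lens vesicle and optic cup, so it can hold other cells of the region beside the crest. Each E14.5 sample held 18 pooled corneas, and each E16.5 sample held 12. The labels do not say whether samples of a stage came from separate litters, so a p-value measures the spread between these pools.

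Early B cell factors (EBF) are helix-loop-helix proteins with a zinc-coordinating DNA-binding domain, known for B-cell, neuronal and fat-cell differentiation. ZIC proteins are zinc finger factors related to the GLI proteins that carry hedgehog signals, and they are known for patterning the dorsal neural tube and the neural crest at its border. Members of both families are expressed in migrating cranial mesenchyme and in the nervous system of the embryo.

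Levels are given as FPKM, the fragments of a gene scaled by transcript length and library total, so they can be compared between genes. The total of expected counts was between 8745161 and 9069023 in the 9 samples. A level of 3 counts in a library was taken as the floor below which a gene was not told apart from 0. All 8 corneal stroma markers and all 8 corneal epithelium markers were called higher in the cornea of both stages than in pNC, while the summed FPKM of 8 periocular mesenchyme markers was 867 to 913 at E10.5 and 877 to 950 at E14.5. In the E14.5 stage, replicate 1 stood apart, with a summed epithelial marker FPKM of 2134 against 659 and 782 in the others. Its summed stroma marker FPKM was also the highest, at 7618 against 3531 and 5391.

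On GRCm38, Ebf1 spans chr11:44618100-45008096, Ebf2 chr14:67233292-67430952 and Ebf3 chr7:137193671-137322805. The Zic members lie as neighbouring pairs on opposite strands. Zic1 at chr9:91358058-91365768 and Zic4 at chr9:91365631-91389351 overlap at their 5′ ends by 138 bases. Zic5 at chr14:122459160-122465658 and Zic2 at chr14:122475384-122480328 are 9725 bases apart. Ebf4 spans chr2:130295126-130370482.

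The 4 stretches below lie before an annotated RefSeq start on GRCm38.p6, from base 250 to base 51 upstream, and overlap no exon of the GENCODE annotation. They are shown because Ebf3 and Ebf4 changed in opposite directions in the cornea, and because Zic1 and Zic5 stand for one gene of each Zic pair. The Ebf3 stretch is chr7:137314496-137314695 on the minus strand, the Ebf4 stretch chr2:130295689-130295888 on the plus strand, the Zic1 stretch chr9:91365819-91366018 on the minus strand and the Zic5 stretch chr14:122465709-122465908 on the minus strand. The stretches of Ebf3 and Ebf4 lie inside the RefSeq span of their genes, which have further starts upstream. Each runs 5′ to 3′ along its gene, and capitals mark CpG sites.
Ebf3: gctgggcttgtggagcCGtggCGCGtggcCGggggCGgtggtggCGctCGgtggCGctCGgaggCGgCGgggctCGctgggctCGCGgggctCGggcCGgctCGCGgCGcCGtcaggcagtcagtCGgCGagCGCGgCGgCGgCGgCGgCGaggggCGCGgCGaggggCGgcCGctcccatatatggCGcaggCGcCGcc
Ebf4: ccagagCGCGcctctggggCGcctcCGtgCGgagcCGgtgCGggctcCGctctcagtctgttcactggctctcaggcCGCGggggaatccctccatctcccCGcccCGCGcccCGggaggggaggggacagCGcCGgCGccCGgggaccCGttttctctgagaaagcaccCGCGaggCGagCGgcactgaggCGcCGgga
Zic1: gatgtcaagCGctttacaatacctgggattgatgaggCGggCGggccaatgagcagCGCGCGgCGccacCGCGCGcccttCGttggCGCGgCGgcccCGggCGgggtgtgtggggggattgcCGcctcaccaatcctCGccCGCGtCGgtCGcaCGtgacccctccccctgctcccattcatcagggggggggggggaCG
Zic5: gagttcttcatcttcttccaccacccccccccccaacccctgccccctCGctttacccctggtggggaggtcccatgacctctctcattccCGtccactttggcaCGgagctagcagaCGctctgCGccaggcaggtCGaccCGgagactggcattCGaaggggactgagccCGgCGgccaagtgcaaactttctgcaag
The Ebf3 stretch held 37 CpG sites, more than 99.6% of the 32851 promoter stretches of the same length, whose median was 4. The Ebf4 stretch held 25 and the Zic1 stretch 24, more than 95.2% and 94.4% of promoters. The Zic5 stretch held 10, more than 70.7%. The matching stretch of Zic4 held 2, more than 24.6%, and those of the 2 starts listed for Ebf1 held 5 and 13, more than 52.6% and 77.9%. Unlike the 4 printed stretches, that of Zic4 and the Ebf1 stretch with 5 CpG sites overlap annotated exons. The Zic4 stretch, at chr9:91368722-91368921, and the Ebf1 stretch with 13 CpG sites lie inside the RefSeq span of their genes. That of Zic4 is therefore not the stretch before its end that overlaps Zic1. The listed starts of genes that fell thus included both CpG-rich and CpG-poor ones, and which starts were in use was not tested. The promoter table gave entries for 6 of these 8 genes, with none for Ebf2 and Zic2. Neither the palindromic EBF motif nor the ZIC motif CCTGCTG, searched on both strands, occurred in the windows of these 6 genes from 250 bases before to 50 bases after a start. They occurred in 297 and 3454 of all 32851 such windows.

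Among the Ebf genes, Ebf3 had the highest level in pNC. Its FPKM was 32.0, 30.4 and 25.9 in the 3 E10.5 samples, 1.24, 1.92 and 1.52 at E14.5, and 0.53, 0.60 and 0.79 at E16.5. Every cornea sample lay far below every pNC sample, and the E16.5 samples lay below all E14.5 samples. Summed over the samples of a stage, its counts, scaled to the library totals, at E14.5 were 5.30% of those at E10.5, with an exact 95% counting interval of 4.59% to 6.10%, and at E16.5 they were 2.18%, with an interval of 1.73% to 2.69%. Such intervals, and the floor, cover counting error only. Without replicate 1 of E14.5, the mean FPKM of the 7 genes was at 0% to 5.84% of that in pNC at this stage.

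Ebf1, the founding member of the family and a B-cell and mesenchymal factor, had an FPKM of 15.3, 14.2 and 10.54 in pNC. It had 0.15, 0.51 and 0.30 at E14.5, and 0, 0.10 and 0 at E16.5. Its counts fell from 808 over the 3 pNC samples to 19 at E14.5 and 2 in E16.5 cornea. The share left was 2.38% at E14.5, with an interval of 1.43% to 3.75%, and 0.251% at E16.5, with an interval of 0.0304% to 0.910%. At the last stage the counts of every library were under the floor.

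Ebf2, known for brown fat and bone-related mesenchyme, had an FPKM of 11.5, 13.0 and 12.1 in pNC and was at 0 in all 6 cornea samples. From 1830 counts over the pNC samples, its level was at least 199-fold lower at E14.5 and at least 198-fold lower at E16.5, taking the floor of 3 counts in each cornea library. It had the smallest spread in pNC of the 7 genes, with a coefficient of variation of 6.42% against 9.05% to 23.7% for the others.

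Among the Zic genes, Zic2, a factor of forebrain and dorsal neural tube patterning, was highest in pNC with an FPKM of 16.1, 19.3 and 13.1. It had 0.04, 0.11 and 0.19 at E14.5, and 0.04, 0 and 0.11 at E16.5. The 1298 counts of the pNC samples stood against 9 and 4 in the cornea stages. This left 0.703% at E14.5, with an interval of 0.321% to 1.34%, and 0.313% at E16.5, with an interval of 0.0851% to 0.803%.

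Zic1, known for cerebellar and dorsal neural development, had an FPKM of 12.5, 15.2 and 9.37 in pNC. It had 0.72, 0.44 and 0.75 at E14.5, and 0.72, 0.38 and 0.56 at E16.5. It kept the largest share of the Zic members, 5.12% at E14.5, with an interval of 3.87% to 6.71%, and 4.44% at E16.5, with an interval of 3.26% to 5.89%. The values of the cornea stages overlapped.

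Zic4 and Zic5, the head-to-head partners of Zic1 and Zic2, were the lowest members in pNC. The FPKM of Zic5 was 3.13, 3.23 and 2.52 in pNC, 0, 0 and 0.09 at E14.5, and 0 in the 3 samples at E16.5. From 190 counts in pNC, 2 were left at E14.5, which is 1.07% with an interval of 0.128% to 3.91%, and the level at E16.5 was at least 20.8-fold lower. The FPKM of Zic4 was 1.05, 1.18 and 0.99 in pNC, and 1 cornea sample of each stage held 1 count. This left 0.851% at E14.5, with an interval of 0.0214% to 4.84%, so its share left was known only within wide limits.

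**Figure D1:**
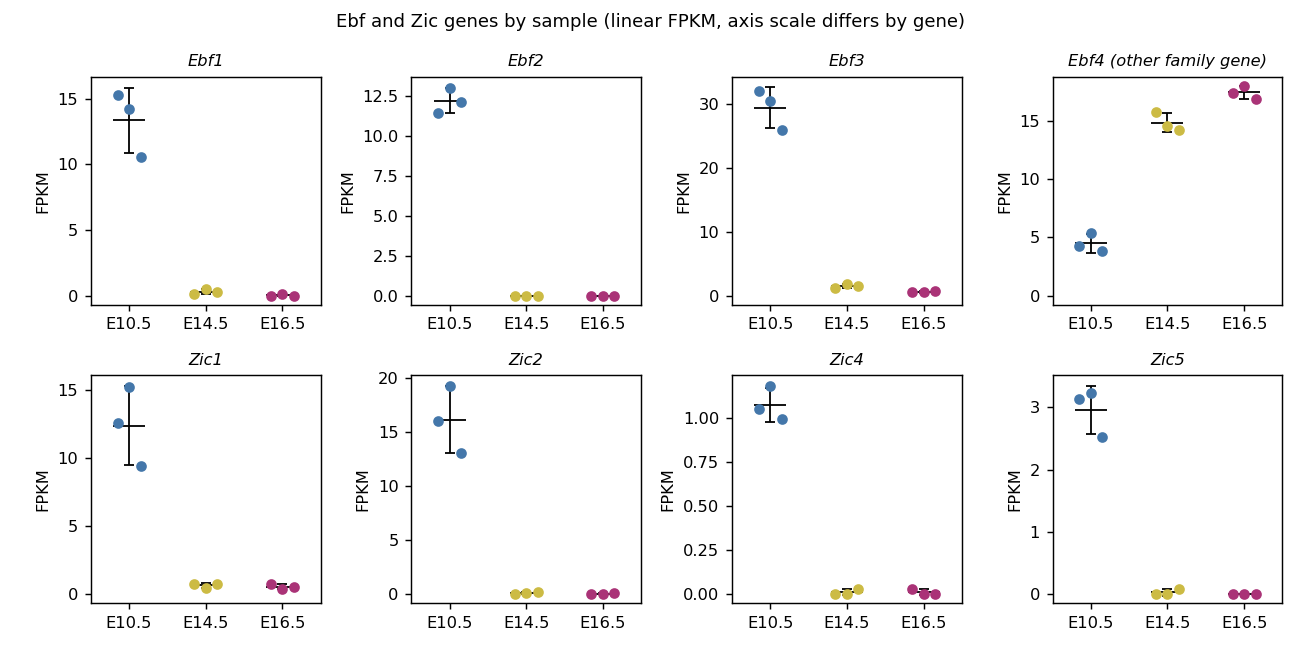
FPKM of the 7 chosen genes and Ebf4 in each of the 9 samples (points, by stage), with the mean and SD of each stage (line and bars, n = 3). The axes are linear and differ between genes. The 7 chosen genes are near 0 in the cornea, whereas Ebf4 rises from a mean FPKM of 4.49 to 14.8 and 17.4.

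In pNC the order of the levels was Ebf3, Zic2, Ebf1, Zic1, Ebf2, Zic5 and Zic4. Ebf3, Zic5 and Zic4 were separated from their neighbours in this order in all samples. The values of Zic2, Ebf1, Zic1 and Ebf2, from 9.37 to 19.3, overlapped. Within pNC, replicate 3 had the lowest level of each of these 7 genes and Ebf4, except Ebf2. The same sample had the lowest summed FPKM in 9 of 11 marker lists, such as neurons, at 130 against 205 and 211, and vascular endothelium, at 163 against 249 and 239. What part this has in the levels of the members was not tested.

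Within the Zic pairs in pNC, Zic2 was 5.14, 5.98 and 5.21 times as high as Zic5, and Zic1 was 11.9, 12.9 and 9.46 times as high as Zic4. The coefficients of variation of these ratios were 8.52% and 15.5%. Zic1 stood at 0.778, 0.788 and 0.714 of Zic2. The coefficient of variation of the Zic1 to Zic2 ratio was 5.33%, against 23.7% for Zic1 and 19.1% for Zic2 alone, so these genes were high and low in the same samples.

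Over the whole data, 208 of 13032 genes that averaged 1 FPKM or more in pNC were left at no more than 10% of it in both cornea stages, or 1.60% of them. All 7 members were among them, as their choice required. In each of the 7, every cornea sample of both stages lay below every pNC sample. This held for 32.5% of those 13032 genes at E14.5 and for 48.4% at E16.5.

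**Figure D2:**
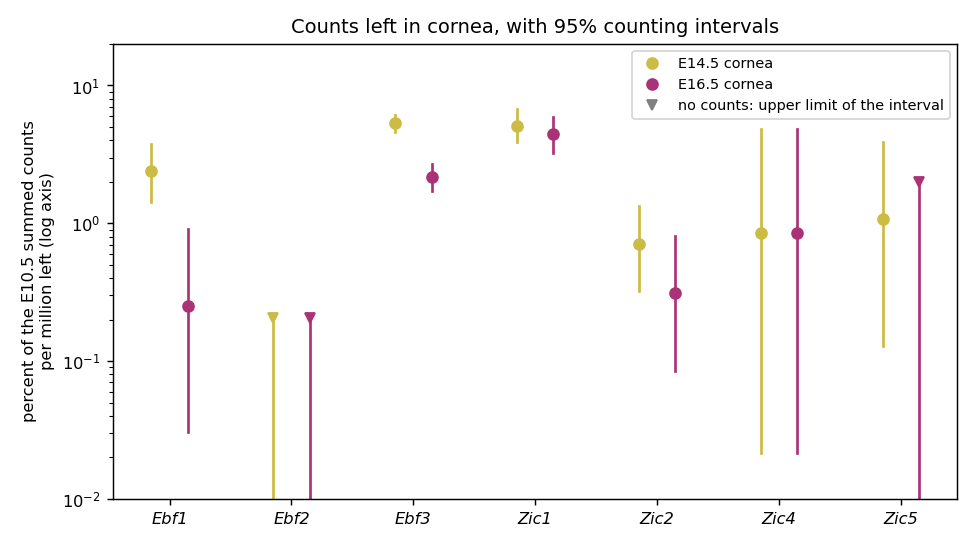
Summed counts, scaled to the library totals, left in E14.5 and E16.5 cornea as a percent of the E10.5 value for each of the 7 genes (log axis), with exact 95% counting intervals. Triangles mark stages with no counts, at the upper limit of the interval. Ebf3 and Zic1 keep 5.30% and 5.12% at E14.5, and Ebf2 has no counts in either cornea stage.

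Whether the remaining low levels changed further within the cornea was asked by comparing E16.5 with E14.5 by edgeR's quasi-likelihood test over 14771 genes. In 4 members, Ebf2, Zic2, Zic4 and Zic5, the mean count of both cornea stages was at or under the floor, and no fold change is given. Of the 3 others, Ebf3 was called lower at E16.5, at an adjusted p under 0.05 with a log2 fold change of at least 1 in size. Ebf1 passed the filter on low counts only through its pNC level, so its cornea values are a description. The share of all genes called lower was 5.47%, and 6.26% were called higher.

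Ebf3 had a mean FPKM of 1.56 ± 0.342 at the earlier stage and 0.640 ± 0.135 at the later (SD, n = 3), a log2 fold change of -1.12 (SE 0.21, edgeR adjusted p = 0.00269). Without replicate 2 of E14.5 the log2 fold change was -0.96, under the fold minimum, with an adjusted p of 0.011. Ebf1 went from 0.320 ± 0.181 down to 0.0333 ± 0.0577 in mean FPKM. Its counts were 3, 10 and 6 at E14.5 and 0, 2 and 0 in E16.5 cornea, and the summed E16.5 level was 10.54% of that at E14.5, with an exact counting interval of 1.19% to 43.7%.

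Zic1 differed by a log2 fold change of -0.054 (SE 0.35, edgeR adjusted p = 0.921), with mean FPKM of 0.637 ± 0.171 at E14.5 and 0.553 ± 0.170 in E16.5 cornea (SD, n = 3). Its sign turned when replicate 1 or 3 of E14.5 or replicate 2 of E16.5 was left out. A further fall of Zic1 was not detectable between these stages. At E16.5, Ebf3 and Zic1 overlapped in level and were the only members with more than the floor of 3 counts in every library.

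Ebf4, the remaining gene of the family, went the other way. Its FPKM was 4.25, 5.40 and 3.83 in pNC, 15.8, 14.51 and 14.2 at E14.5, and 17.4, 18.02 and 16.9 at E16.5, and the stages did not overlap. It rose by a log2 fold change of 1.71 at E14.5 (SE 0.12, edgeR adjusted p = 1.6e-06) and of 2.10 at E16.5 (SE 0.12, edgeR adjusted p = 2.1e-07). The share of all genes called higher was 13.6% at E14.5 and 19.4% in E16.5 cornea. Without replicate 1 of E14.5, which stood apart in epithelial and stroma markers, the E14.5 value was 1.67. Between the cornea stages Ebf4 had a log2 fold change of 0.40 (SE 0.11, edgeR adjusted p = 0.0192), under the fold minimum.

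The makeup of the Ebf sum thus differed between pNC and cornea, and the sum decreased less than Ebf1, Ebf2 and Ebf3 did. Summed over the 4 genes, FPKM was 59.5 ± 6.15 in pNC, 16.7 ± 0.597 at E14.5 and 18.1 ± 0.556 in E16.5 cornea (SD, n = 3). Ebf3 made up 49.5% of the sum in pNC, Ebf1 22.3%, Ebf2 20.7% and Ebf4 7.54%. Ebf4 made up 88.7% at E14.5 and 96.3% in E16.5 cornea. With expected counts scaled to the library total in place of FPKM, which favors the longer transcripts, its share was 4.68%, 82.4% and 93.4%. Of the chosen genes, Ebf3 held 9.34% of the sum at E14.5 and Ebf1 1.92%. Ectoderm was removed from the pNC samples, and their summed epithelial marker FPKM was 33.2 to 44.55, against 5270 to 7623 at E16.5. A change of Ebf4 within the same cells and a change in the tissue sampled cannot be told apart.

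The summed FPKM of the 4 Zic members was 32.6 ± 6.47 in pNC, 0.790 ± 0.256 at E14.5 and 0.613 ± 0.211 in E16.5 cornea (SD, n = 3). In pNC, Zic2 held 49.7% and Zic1 37.8% of the sum. Zic1 held 81.8% of what was left at E14.5 and 91.6% in E16.5 cornea.

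**Figure D3:**
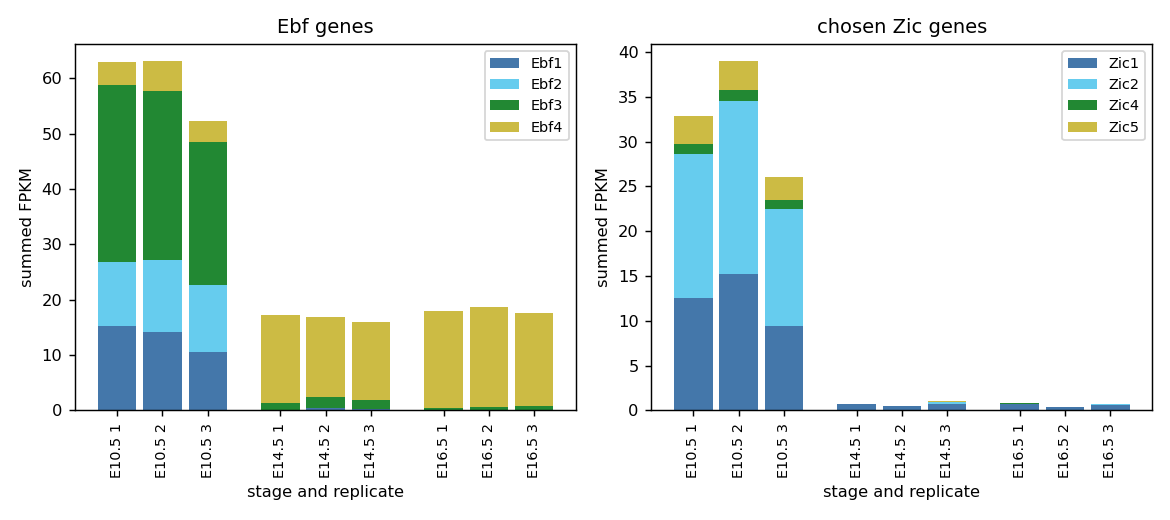
FPKM of each gene stacked over Ebf1 to Ebf4 and over the 4 chosen Zic genes, with 1 bar for each of the 9 samples. Ebf3, Ebf1 and Ebf2 fill most of the Ebf bars in pNC and Ebf4 fills 88.7% and 96.3% of them in the cornea, while the Zic bars decrease from a mean of 32.6 to 0.790 and 0.613.

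Genes next to the members were looked up after the levels of the members were known. The long noncoding RNA 2610035F20Rik at chr14:122470377-122475199, which ends 184 bases before Zic2, had an FPKM of 1.48, 2.34 and 1.80 in pNC, 0.10, 0 and 0 at E14.5, and 0 in the 3 samples at E16.5. Gm5089, a noncoding RNA on the far side of Zic5, went from a mean FPKM of 1.58 to 0.133 and 0. On the other side of Zic2, Pcca, a mitochondrial propionyl-CoA carboxylase subunit, had a mean FPKM of 12.4 ± 0.812 in pNC, 10.4 ± 1.75 at E14.5 and 4.69 ± 0.485 in E16.5 cornea (SD, n = 3). Its log2 fold change against pNC was -0.27 at E14.5 (SE 0.13, edgeR adjusted p = 0.107) and -1.25 at E16.5 (SE 0.14, edgeR adjusted p = 1.5e-05). Near Ebf4, the ribosome assembly gene Nop56 fell by a log2 fold change of -1.45 at E16.5 (SE 0.10, edgeR adjusted p = 4.2e-07) and Idh3b had one of -0.11 (SE 0.09, edgeR adjusted p = 0.268). On the other side, Cpxm1 and Pced1a had log2 fold changes of 0.51 and 0.66, under the fold minimum, at that stage. Whether reads were counted by strand is not stated, so reads of Zic2 and of the noncoding RNA beside it, or of the overlapping ends of Zic1 and Zic4, may not be fully told apart. Zic1 and Ebf3 also have counts that are not whole, as RSEM gives where it shares out reads between genes.

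Genes that work with EBF or ZIC factors were counted next. In each list, the median log2 fold change is given beside that of all 14771 genes tested, which was 0.015 at E14.5 and 0.00062 for E16.5 against pNC. The share of all genes called lower was 7.97% at E14.5 and 15.4% in E16.5 cornea. The partners of EBF moved in both directions. Of 7 partner genes 6 were tested, of which 2 rose and 1 fell at E14.5, and 2 rose and 2 fell at E16.5, with medians of 0.61 and 0.45.

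Zfp423, a zinc finger protein that binds EBF factors and steers preadipocytes, fell with the members. Its FPKM was 13.98, 15.3 and 10.49 in pNC, 3.31, 6.30 and 7.77 at E14.5, and 2.10, 2.53 and 3.50 at E16.5. The log2 fold change was -1.20 at E14.5 (SE 0.28, edgeR adjusted p = 0.00373), or -0.92 and under the fold minimum without replicate 1 of E14.5, and -2.14 at E16.5 (SE 0.29, edgeR adjusted p = 7.0e-05). The E proteins, which share B-cell targets with Ebf1, were split. Tcf4 rose from a mean FPKM of 25.2 ± 0.781 to 69.7 ± 13.3 and 50.7 ± 3.52 (SD, n = 3). Tcf3 fell at E16.5, from 145 ± 10.96 to 65.2 ± 1.18, with a log2 fold change of -1.01 that came under the fold minimum without replicate 1 or 2 of pNC or replicate 1 of E16.5. Runx1, a blood and mesenchymal factor, rose from 0.923 ± 0.214 to 3.36 ± 0.944 and 2.06 ± 0.197. Pax5, the B-cell partner, was at no more than 0.19 in any sample, and B-lineage markers summed to between 1.65 and 3.32 FPKM in all 9 samples. Between the cornea stages no partner gene was called by edgeR or by DESeq2, and 4 of 6 had an unadjusted p under 0.05. Zfp423 had a log2 fold change of -0.94 there, under the fold minimum. It was called lower, with values from -1.22 to -1.01, with library totals, by limma on log2(FPKM + 0.1), and without replicate 1 of E14.5 or replicate 3 of E16.5.

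The adipose programme, in which Ebf1 and Ebf2 are known to act, also moved both ways. Of its 12 genes 6 were tested, and 2 rose and 1 fell at E14.5, with a median log2 fold change of 0.37, while 3 rose and 1 fell at E16.5, with a median of 1.19. Cebpa, a fat-cell and epithelial factor, rose from an FPKM of 1.09, 2.07 and 0.94 in pNC to 14.8, 7.57 and 8.94 at E14.5 and 20.3, 16.3 and 16.8 at E16.5. The log2 fold change of Cebpa was 2.91 (SE 0.31, edgeR adjusted p = 2.6e-05) and 3.84 (SE 0.31, edgeR adjusted p = 1.4e-06). Prdm16, the brown-fat regulator, fell from 6.34 ± 1.27 to 1.78 ± 0.796 and 0.530 ± 0.171 (SD, n = 3), by log2 fold changes of -1.85 and -3.43. The fatty acid receptor Cd36 was called higher at both stages, from 0.730 ± 0.238 to 1.55 ± 0.927 and 2.14 ± 0.513. The E14.5 call of Cd36 was lost when any of 7 of the 9 samples was left out, with an adjusted p of up to 0.236 without replicate 1 of E14.5. Ppargc1a, named after its values were seen, was called higher at E16.5 against both earlier stages, with means of 0.643, 0.873 and 1.58. Its call against E14.5 was lost with library totals, by limma on log2(FPKM + 0.1), and without replicate 2 of E14.5.

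Because ZIC proteins resemble GLI proteins, hedgehog genes were described as well. The ligands were near 0. Shh had an FPKM of 0.77, 0.20 and 0 in pNC and 0 in all cornea samples, and Ihh and Dhh did not exceed 0.74. Of 9 receptors and regulators, all tested, 3 rose and 1 fell at E14.5, and 5 rose and 1 fell at E16.5, with medians of 0.29 and 1.17. The gene that fell was Ptch1, the receptor whose transcription hedgehog signals induce. It had an FPKM of 15.7, 16.3 and 11.5 in pNC, 3.71, 7.33 and 5.03 at E14.5, and 3.61, 3.44 and 3.25 at E16.5. Ptch1 had log2 fold changes of -1.45 (SE 0.21, edgeR adjusted p = 2.0e-04) and -1.92 (SE 0.22, edgeR adjusted p = 1.6e-05). Between the cornea stages none of these 9 genes was called by edgeR or by DESeq2, and 3 had an unadjusted p under 0.05.

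Hhip, which binds hedgehog ligands and is induced by them, rose instead. It went from 0.81, 0.92 and 0.89 in pNC to 12.4, 7.83 and 8.61 at E14.5 and 9.70, 12.7 and 11.6 at E16.5, with log2 fold changes of 3.44 (SE 0.19, edgeR adjusted p = 3.5e-07) and 3.84 (SE 0.19, edgeR adjusted p = 1.0e-07). The co-receptor Cdon rose from 16.9 ± 1.98 to 54.0 ± 8.95 and 67.6 ± 0.577 (SD, n = 3). Gas1, another co-receptor, rose at both stages, and Boc and Disp1 were called higher at E16.5 (these were named after their values were seen).

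In the GLI superfamily, all 6 genes were tested. At E14.5, 2 rose and 1 fell, and at E16.5, 1 rose and 1 fell, with medians of 0.13 and 0.11. Gli1, the transcriptional readout of hedgehog signals, fell from an FPKM of 30.0, 28.7 and 26.3 in pNC to 3.12, 16.3 and 8.60 at E14.5 and 0.25, 1.51 and 1.28 at E16.5. The stages did not overlap, and the E14.5 samples were widely spread, with replicate 1 the lowest. The log2 fold change was -1.62 (SE 0.46, edgeR adjusted p = 0.0116) at E14.5 and -4.65 (SE 0.58, edgeR adjusted p = 3.5e-05) at E16.5, and -3.03 (SE 0.59, edgeR adjusted p = 0.00353) between the cornea stages. Without replicate 1 of E14.5, the E14.5 value of Gli1 was -1.20, and it was still called. Gli2 and Gli3, the main effectors, were not called in any comparison. Glis1 rose at E14.5, from 1.92 ± 0.834 to 9.47 ± 4.51 (SD, n = 3), and fell again to 2.10 ± 0.555 at E16.5. Glis3 rose from 0.517 ± 0.346 to 1.62 ± 0.728 and 3.83 ± 0.397, and its call between the cornea stages was lost without replicate 2 or 3 of E14.5 or replicate 1 of E16.5, with an adjusted p between 0.0524 and 0.057.

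ZIC factors act at the neural plate border, together with other border and crest specifiers. Of 18 such genes 17 were tested, of which 10 fell and 3 rose at E14.5, and 9 fell and 3 rose at E16.5. The median log2 fold change was -1.58 and -1.34. Pax7, a border and muscle progenitor gene, reached 0 in the cornea, as Ebf2 did. It had an FPKM of 11.1, 4.25 and 7.16 in pNC and was at least 95.2-fold lower at E14.5 and at least 95.03-fold lower at E16.5. Msx1, a homeobox gene of the border, fell from 57.2, 50.1 and 69.1 to 4.56, 8.32 and 10.53 and then to 0.71, 1.29 and 0.76. Its log2 fold change was -2.92 (SE 0.26, edgeR adjusted p = 6.7e-06) and -5.84 (SE 0.34, edgeR adjusted p = 2.0e-07) against pNC. Msx1 and Mycn, the latter named after its values were seen, were the genes of this list that edgeR called lower between the cornea stages. DESeq2 called these and also Pax3 lower (log2 fold change -1.62, adjusted p = 0.0117), a gene named after its values were seen, as did edgeR without replicate 1 of E14.5 (-2.01, adjusted p = 0.0105).

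Not all border genes fell. Tfap2b, a crest factor also known in the anterior eye, rose from an FPKM of 10.8, 10.46 and 12.9 to 93.7, 171 and 186 at E14.5 and 73.1, 84.2 and 86.2 at E16.5. The log2 fold change was 3.71 (SE 0.24, edgeR adjusted p = 9.3e-07) and 2.98 (SE 0.24, edgeR adjusted p = 1.3e-06). Gbx2, a border homeobox gene, was called higher at both stages, with 4 counts over the pNC samples against 85 and 106 in the cornea. Tfap2a rose as well (named after its values were seen).

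**Figure D4:**
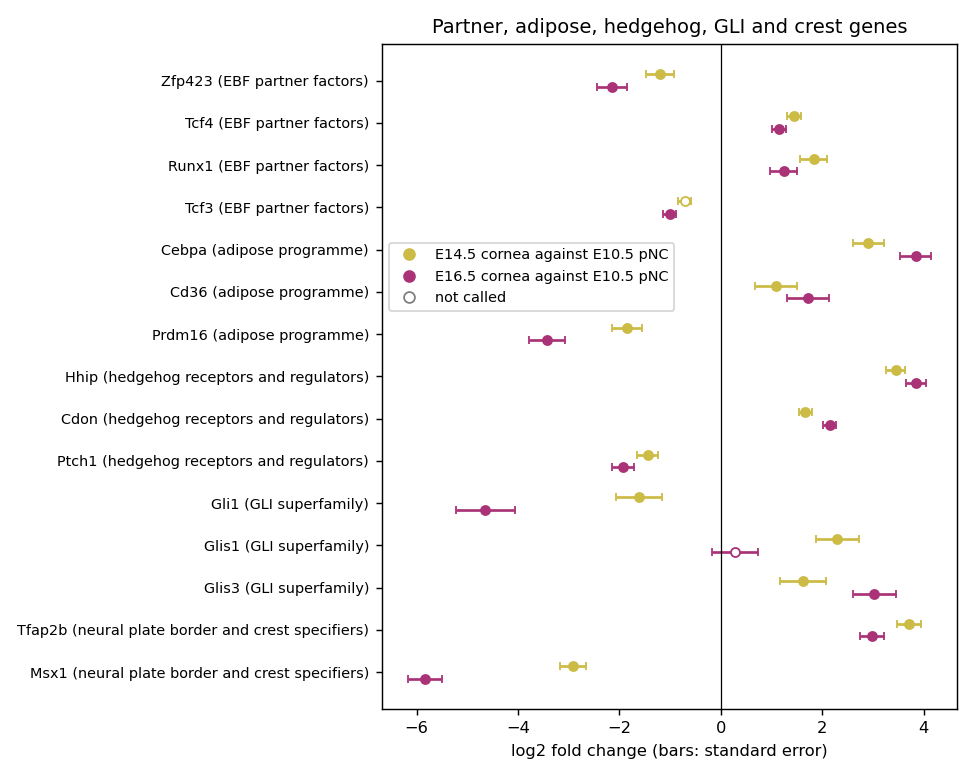
Log2 fold change against E10.5 pNC, with its standard error, of the genes named from the EBF partner, adipose, hedgehog, GLI and crest lists, for E14.5 and E16.5 cornea. Open points were not called, and Pax7 and Gbx2 are left out because 1 stage was at or near 0. Zfp423, Prdm16, Ptch1, Gli1 and Msx1 lie below 0 at both stages, and Hhip reaches 3.84.

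The profiles most like those of the members over the 9 samples were found among 10924 genes that averaged 5 FPKM or more at some stage. Likeness was the overlap of the FPKM shares of the samples, and it was dominated by the difference between the stages. Nearest to the mean of Ebf1, Ebf2 and Ebf3 were Isl1, Pou4f1, Tlx2, Inmt and Prph, with an overlap of 97.3% to 96.4%. Nearest to the mean of the 4 Zic members were Tlx3, Prph, Hbb-bh1, Ppp1r17 and Hsd11b2, with an overlap of 98.0% to 96.9%. Isl1, Pou4f1, Tlx2 and Tlx3 are transcription factors of peripheral neurons, Prph is an intermediate filament of such neurons, and Hbb-bh1 is an embryonic globin. Isl1 had a mean FPKM of 14.8 ± 1.55 in pNC and 0.0433 ± 0.0751 at E14.5, and Tlx3 had 6.20 ± 0.873 and 0.0233 ± 0.0404 (SD, n = 3).

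Markers of several other cell types moved in the same direction as the members. The summed FPKM of 8 neuron markers was 130 to 211 in pNC, 3.58 to 4.64 at E14.5 and 1.23 to 1.70 at E16.5. Of these 8 genes 7 were called lower at E14.5 and 8 in E16.5 cornea, and Neurod1 was at 0 at E14.5. Of 8 skeletal muscle lineage markers, 5 were at 0 in all cornea samples, namely Myf5, Myod1, Myog, Myf6 and Tcf21. The sum went from between 21.2 and 23.0 in pNC to between 2.25 and 12.6 at E14.5 and between 1.24 and 2.67 at E16.5. Most of the E14.5 sum was Pitx1, which went the other way at that stage, with means of 3.35, 8.13 and 1.62 over the 3 stages. Vascular markers went from 163 to 249 in pNC to 28.3 to 44.5 at E16.5. Of these 8 genes 7 were called lower at E16.5, and most of that sum was Kdr, at a mean of 26.8 in pNC and 26.2 at E16.5. Blood markers went from 5044 to 7885 in pNC to 649 to 1357 at E16.5. Most of the E16.5 sum was Hba-a1, at a mean of 1478 in pNC and 1007 at E16.5. The embryonic globins Hba-x, Hbb-y and Hbb-bh1 fell from 1612, 2452 and 1067 to 1.82, 2.87 and 0.39. Glial markers summed to 58.4 to 76.4 in pNC and 31.6 to 37.9 at E16.5, where 3 of 6 were called lower and 1 higher. Erbb3 rose from a mean of 5.70 to 23.0, whereas Fabp7 fell from 33.9 to 1.95. Optic cup and neural tube markers were 40.6 to 89.3 in pNC, 35.4 to 58.6 at E14.5 and 18.3 to 23.96 at E16.5, and most of the cornea sum was Nes, at a mean of 30.4, 40.9 and 17.5. Of 8 such markers tested, 6 were called lower at each cornea stage, with median log2 fold changes of -3.82 and -4.86, and Sox1 was at 0 in both. Lens markers were 1.95 to 5.35 in pNC and 45.5 to 51.3 at E16.5, with Crygs and Lim2 at 0 there. Most of this E16.5 sum was Cryab, whose mean rose from 2.60 to 45.1, while Cryaa was at 1.29. The 7 Ebf and Zic genes summed to 74.6 to 96.6 in pNC, 2.15 to 2.98 at E14.5 and 1.08 to 1.46 at E16.5. In bulk samples, fewer cells of a type and less RNA per cell cannot be told apart, and the part of these cell types in the fall of the Ebf and Zic genes was not tested.

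**Figure D5:**
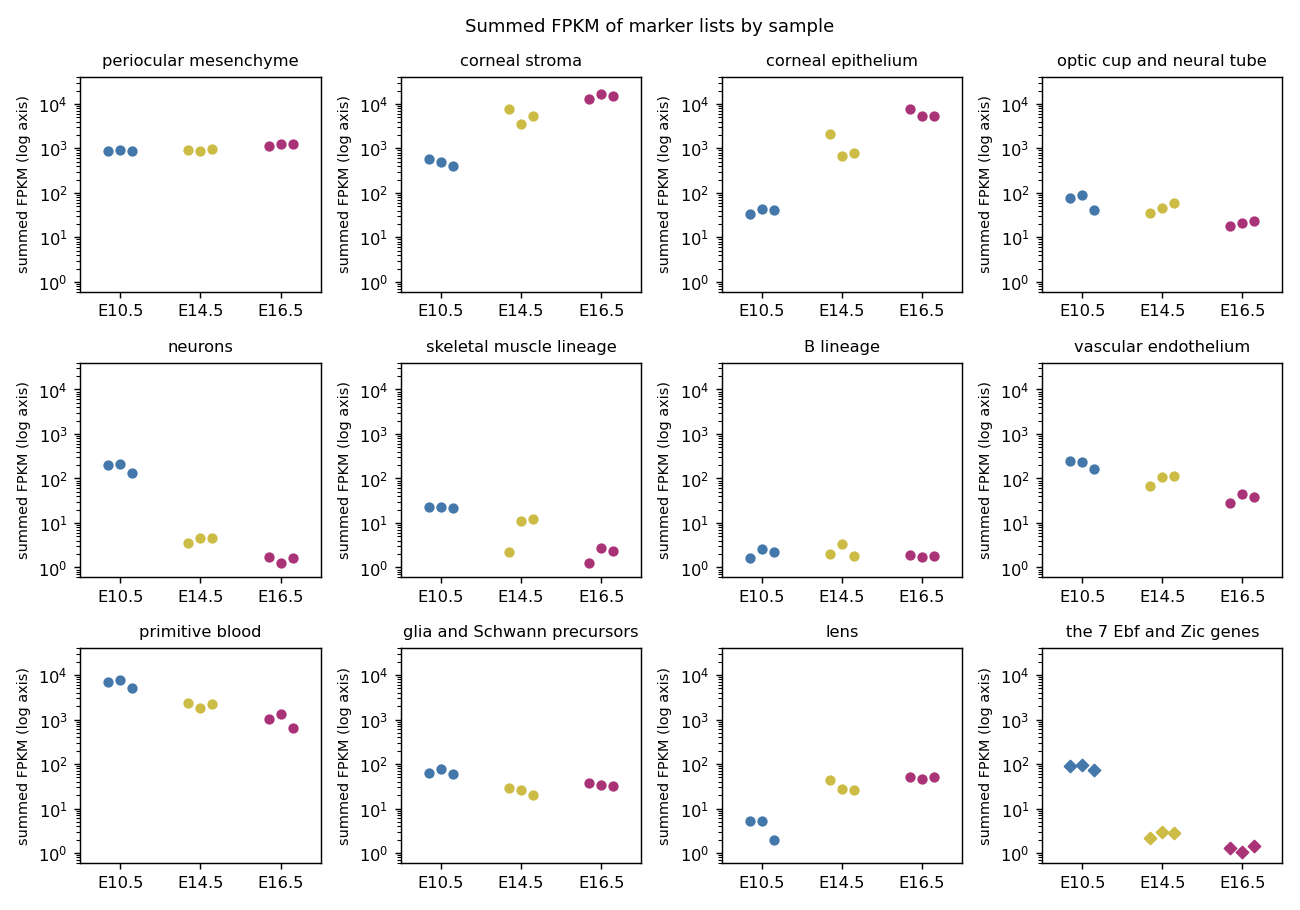
Summed FPKM of 11 marker lists and of the 7 Ebf and Zic genes in each of the 9 samples (points, by stage), all on the same log axis. Neuron markers decrease from 130 to 211 in pNC to 3.58 to 4.64 at E14.5, as the 7 genes do from 74.6 to 96.6 to 2.15 to 2.98, whereas periocular mesenchyme markers stay between 867 and 1266.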

How the data were processed

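RNA-Seq of 9 samples was used, grouped by the stage in the sample labels. The authors mapped reads with Bowtie2 and HISAT to GRCm38 and quantified genes with RSEM (versions not given in the sources used here). The deposited expected counts are RSEM estimates, not normalized. The deposited FPKM were made by the authors from those counts, transcript length and the sample total. Other columns of the files, and the authors' own calls, made with NOISeq, were not used. A gene missing from a file was taken as 0. Of 19369 gene identifiers 19312 had a symbol. Totals of 8745161 to 9069023 counts make counting error small except for rare transcripts, where exact 95% intervals (conditional binomial) are given.

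Expected counts were rounded, filtered with filterByExpr by stage and scaled by TMM, and 1 quasi-likelihood model of stage over 9 samples was fitted in edgeR 4.0.16 (R 4.3.3), in place of NOISeq because it models replicates. A call needed an adjusted p (Benjamini-Hochberg) under 0.05 together with a log2 fold change of 1 or more in either direction. The alternatives used DESeq2 1.42.0, limma 3.58.1, other scaling and filters, a replicate block and samples left out. Levels, intervals and promoter features were computed in Python 3.11.15.

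The members, gene lists, marker lists and tests were chosen with earlier results of these data known. Named genes are the 7 members, Ebf4, every called gene of lists with at most 7 genes, up to 2 of the largest rises and falls of longer lists averaging 1 FPKM or more in either of the stages compared, and the 5 nearest profiles of each family. Of the planned sequence features, protein length, identity and zinc fingers were not analysed here, and some genes are not reported here. No pair of replicates was alike within counting noise (chi-square over degrees of freedom 2.93 to 26.3 in the 9 pairs).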

Additional observations from a re-analysis of the deposited data

How the results depend on the processing

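Library totals without TMM left 1 gene of the 6 lists called higher at E16.5 against E14.5 in place of 2, and limma on log2(FPKM + 0.1) also left 1. Limma on log2(FPKM + 1), which by construction shrinks the changes of low genes, called 1286 genes higher and 736 lower at E14.5 against E10.5, 1856 higher at E16.5 against E10.5, and 501 higher and 491 lower at E16.5 against E14.5. Under it 9 list genes in place of 14 were higher at E16.5 against E10.5, 0 were higher at E16.5 against E14.5, and 0 of the 7 members were called lower between the cornea stages. Ebf3 was past the threshold between the cornea stages in the main fit and with only the stages compared in the fit. Ebf1 entered the main fit only through its pNC level, so it is not counted as called, and with only those stages it was not tested. Without a fold minimum the numbers higher and lower were 4273 and 4055, 5197 and 5119, and 2579 and 2585, and 6 list genes were higher and 8 lower between the cornea stages.

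Leaving out 1 sample gave 1864 to 2135 genes higher and 1121 to 1341 lower at E14.5 against E10.5, 2829 to 2934 and 2286 to 2387 at E16.5 against E10.5, and 690 to 1307 and 632 to 1056 between the cornea stages. Among list genes the numbers were 11 to 13 and 13 to 15, 14 to 15 and 13 to 15, and 0 to 5 and 5 to 8. Ebf3 was called lower between the cornea stages whichever sample was left out, except replicate 2 of E14.5 cornea. Between these stages 5 list genes were higher and 8 lower without replicate 1 of E14.5. The Ebf4 share ran from 7.03% to 7.94%, 87.2% to 90.3% and 95.9% to 96.7%. With counts scaled to the library total it was 4.68%, 82.4% and 93.4%, since transcript length no longer entered.

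The log2 fold change of Zic1 between the cornea stages ran from -0.27 to 0.16 with 1 sample left out, and turned in sign without replicate 1 or 3 of E14.5 or replicate 2 of E16.5. That of Glis1 at E16.5 against E10.5 ran from -0.029, without replicate 2 of E10.5, to 0.60. The cause was not tested. The cornea counts of Ebf2, Zic2, Zic4 and Zic5 were too few to give a fold change between its stages. Of the 5 nearest profiles, 3 (Ebf) and 4 (Zic) were shared with an FPKM minimum of 1, and 1 and 2 with Pearson correlation of log2 values.

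Samples with the same replicate number did not deviate together (mean r = -0.0391 over 9 pairs, from -0.278 to 0.235, and 0.0205 over 18 pairs with different numbers), so the numbers were not taken as pairing. With the replicate block, 1985 higher and 1182 lower genes were called at E14.5 against E10.5, 2855 and 2285 at E16.5 against E10.5, and Ebf3 had a log2 fold change of -1.12 between the cornea stages (edgeR adjusted p = 0.0051).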
